A study of Mus musculus with 16 samples.

Results

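The genes encoding 3 ligands and 3 receptors of the vascular endothelial growth factor (VEGF) family were followed in sorted brain endothelial cells (bECs) of mice after experimental stroke. The members were the rows of the gene count table whose symbol was Vegfa, Vegfb, Pgf, Flt1, Kdr or Flt4, which gave 6 of 37003 genes. All 6 passed the filter on low counts that left 31085 genes for testing.

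RNA of bECs was sequenced in 16 libraries. CTRL and YT-iKO mice, after sham surgery or after MCAo, gave 4 libraries for each combination, to learn what endothelial YAP and TAZ do after stroke. YT-iKO mice carried the Pdgfb-iCreERT2 transgene (also written Pdgfb-iCreER-eGFP, since it holds an eGFP reporter) with floxed Yap and floxed Wwtr1 (the gene of TAZ), and CTRL mice were littermates with the floxed alleles and no transgene. Adult mice of all groups had received tamoxifen before surgery, and the transgene is driven in endothelium by Pdgfb promoter sequence. MCAo was a filament occlusion of the left middle cerebral artery for 30 minutes followed by reperfusion. The sham operation included exposure of the left carotid artery and no occlusion. Cells were taken 72 hours after surgery, enriched on CD31 beads and sorted as living CD45- CD31+ cells. Each library pooled several mice of either sex, so the spread between libraries is a spread between pools. Xist, the RNA of the inactive X chromosome, ran from 2.13 to 908 CPM in CTRL after sham and 1.23 to 724 CPM after MCAo, and from 1.36 to 930 and 0.661 to 1050 CPM in YT-iKO. Its mean was 408 CPM in CTRL sham, 187 CPM in CTRL MCAo, 405 CPM in YT-iKO sham and 462 CPM in YT-iKO MCAo. The pools thus differed in their share of female cells, whose part in the results was not tested.

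VEGF-A binds VEGFR2, the product of Kdr, which carries most of its signal for endothelial growth, migration and permeability. VEGFR1, the product of Flt1, binds VEGF-A, VEGF-B and placental growth factor (the product of Pgf) tightly and signals weakly, so that it limits the VEGF-A that reaches VEGFR2. VEGFR3, the product of Flt4, binds VEGF-C and VEGF-D and is known from lymphatic endothelium and from sprouting blood vessels. In brain, VEGF-A comes largely from cells around the vessels and is a classical product of low oxygen, whereas the receptors belong mainly to the endothelium.

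In GRCm38 with the GENCODE M21 annotation, the ligand genes were Vegfa (ENSMUSG00000023951) at chr17:46016993-46032369, Vegfb (ENSMUSG00000024962) at chr19:6982473-6987651 and Pgf (ENSMUSG00000004791) at chr12:85166635-85177790, all on the minus strand. Flt1 (ENSMUSG00000029648) lay at chr5:147561604-147726011 and Kdr (ENSMUSG00000062960) at chr5:75932827-75978458 on the minus strand, and Flt4 (ENSMUSG00000020357) at chr11:49609263-49652739 on the plus strand. No other annotated gene overlapped any of them. Annotated transcripts numbered 13 for Vegfa, 3 for Vegfb, 4 for Pgf, 6 for Flt1, 3 for Kdr and 2 for Flt4. Counts were per gene, so forms such as soluble VEGFR1 or the VEGF-A splice forms were not separated.

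RefSeq windows of 250 bases before a transcript start (GRCm38.p6) were found for 6 of 6 members, 8 windows in all. Those of Flt1, Kdr and Vegfa are shown because they are the pair of VEGF-A receptors and their shared ligand. The window of Flt4 lay within annotated exons and is not shown. They ran from chr5:147726012-147726261 for Flt1, chr5:75978456-75978705 for Kdr and chr17:46032378-46032627 for Vegfa, each read on the minus strand, 5′ to 3′, with matches to the motif letters below in capitals.
Flt1: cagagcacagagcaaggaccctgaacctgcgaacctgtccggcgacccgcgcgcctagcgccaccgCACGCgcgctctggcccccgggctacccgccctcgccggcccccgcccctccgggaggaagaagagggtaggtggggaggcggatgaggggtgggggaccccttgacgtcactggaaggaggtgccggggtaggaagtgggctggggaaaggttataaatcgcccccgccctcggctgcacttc
Kdr: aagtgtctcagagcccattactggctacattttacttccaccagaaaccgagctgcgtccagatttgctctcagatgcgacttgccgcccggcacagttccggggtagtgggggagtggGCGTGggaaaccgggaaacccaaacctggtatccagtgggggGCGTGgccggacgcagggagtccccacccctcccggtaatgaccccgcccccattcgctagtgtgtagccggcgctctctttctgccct
Vegfa: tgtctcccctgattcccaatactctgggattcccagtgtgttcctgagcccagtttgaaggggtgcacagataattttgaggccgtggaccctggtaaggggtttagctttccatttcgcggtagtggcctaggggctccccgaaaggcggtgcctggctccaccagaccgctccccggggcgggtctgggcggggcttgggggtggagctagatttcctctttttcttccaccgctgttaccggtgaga

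The letters searched were GGAATG or CATTCC for TEAD factors, through which YAP and TAZ reach DNA, ACGTG (reverse complement CACGT) or GCGTG (reverse complement CACGC) for the core bound by hypoxia-inducible factors, and TGACTCA or TGAGTCA for AP-1. With these spellings both strands were searched. None of the 8 windows held the TEAD or the AP-1 letters, which were present in 12.6% and 4.46% of 32817 windows of this length. The hypoxia core occurred in 38.6% of all windows. Flt1 had it 184 bases before its start, Kdr had it 131 and 89 bases before its start, and the Vegfa window shown had none. A further Vegfa window, at an internal start (chr17:46025164-46025413), held 2 matches, Vegfb held 2, and 1 of the 2 Pgf windows held 1. The Flt4 window held none. A match of 5 letters is a description of the sequence and not a binding site.

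Total counts ran from 11418262 to 23074547 per library. The libraries differed in an even background of reads, measured as counts over 1560 olfactory, vomeronasal and taste receptor genes, from 0.0308 to 0.578 CPM (counts scaled to a common library total) per kilobase of exon. TMM factors from all genes tested moved with this background and ran from 0.743 to 1.40 (the all-gene scale). Those computed over genes that averaged 10 CPM or more ran from 0.938 to 1.04 (the abundant-gene scale). The median log2 fold change of all genes for MCAo over both genotypes was 0.03 on the former and 0.11 on the latter, and 0.07 and 0.21 in CTRL. Values per library are given on the abundant-gene scale, and each test is given on the all-gene scale first. The background would account for 1.58% to 58.5% of the Pgf counts of a library, 1.80% to 29.4% of those of Vegfa, 0.387% to 6.71% of those of Vegfb and at most 1.5% of those of any receptor. The labels were checked by the deleted genes: Wwtr1 was at 247 ± 4.99 CPM in CTRL sham and 73.3 ± 12.4 CPM in YT-iKO sham, and Yap1 at 105 ± 2.08 CPM and 50.8 ± 3.63 CPM (mean ± SD, n = 4). All 10 endothelial markers averaged 10 CPM or more. Among lymphatic markers, Prox1 lay between 0.274 and 8.08 CPM and Lyve1 between 0.274 and 2.91 CPM. Reln, the only 1 of the 4 found that averaged 10 CPM or more, lay between 0.320 and 31.5 CPM.

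**Figure D1:**
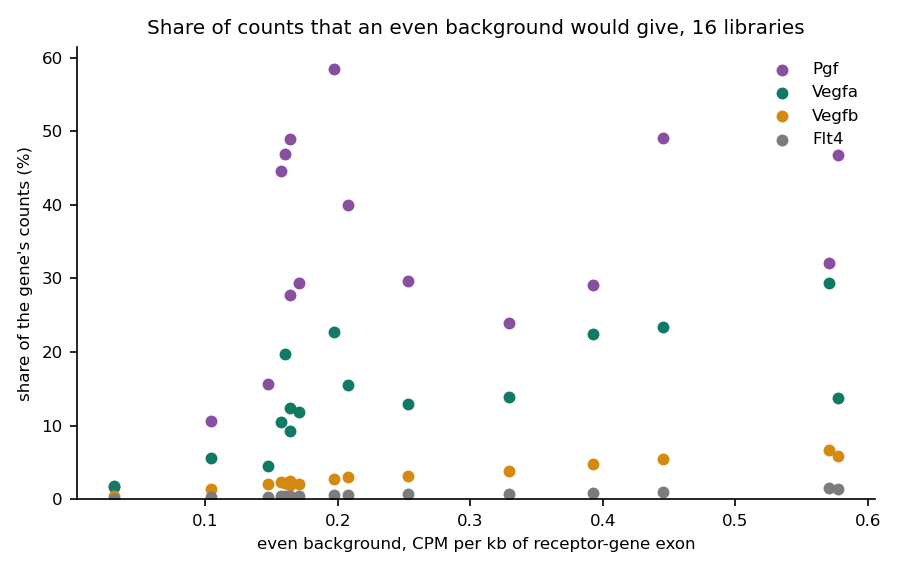
Share of a gene's counts that an even background would give (vertical axis, percent), against the density of that background in each of the 16 libraries (horizontal axis, CPM per kilobase of receptor-gene exon). Pgf reaches 58.5% and Vegfa 29.4%, whereas Flt4 stays at or under 1.5%.

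The receptors were among the most abundant transcripts of these cells and the ligands were not. Per kilobase of exon, Flt1 ranked 32, Kdr 122 and Flt4 577 of 30983 genes with a length, whereas Vegfb ranked 4987, Vegfa 12097 and Pgf 17029. The median level over the 16 libraries was 441 CPM per kilobase for Flt1, 127 for Kdr, 44.1 for Flt4, 7.89 for Vegfb, 1.76 for Vegfa and 0.871 for Pgf, on the abundant-gene scale. The ranges of the receptors did not overlap each other, since Flt1 ran from 341 to 519 CPM per kilobase, Kdr from 116 to 168 and Flt4 from 35.2 to 55.7. Vegfb, at 6.5 to 9.58 CPM per kilobase, lay above every Vegfa value, and Vegfa (0.813 to 4.04) and Pgf (0.323 to 1.92) overlapped.

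**Figure D2:**
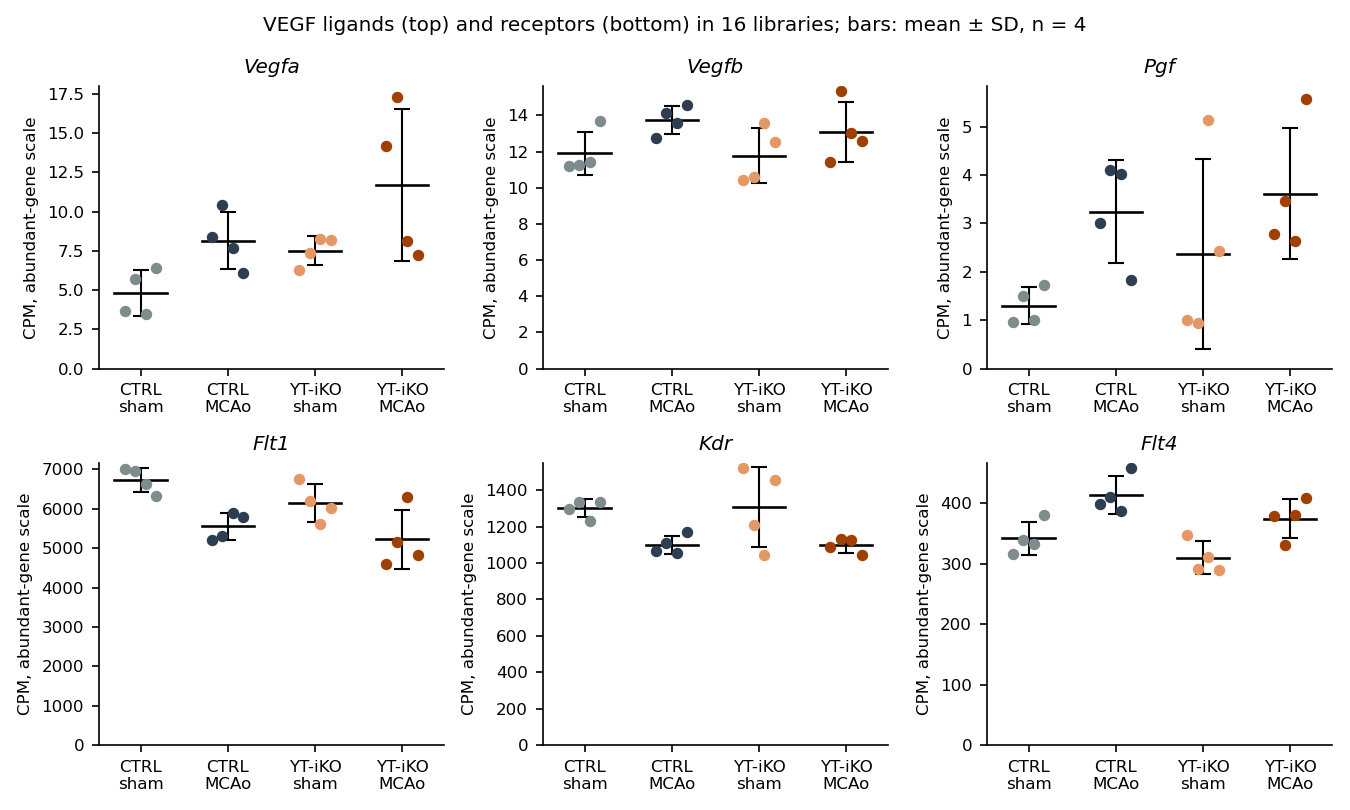
CPM of each member on the abundant-gene scale (vertical axis, from 0) in the 4 libraries of each group; points are libraries, bars the mean ± SD. The ligands are in the upper row and the receptors in the lower row. Flt1 and Kdr sit lower and Flt4 higher in CTRL MCAo than in CTRL sham, and Vegfa is highest in a pair of YT-iKO MCAo libraries.

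Whether stroke changed the receptors was asked first in CTRL mice. Flt1, the gene of the high-affinity VEGFR1, was at 7002, 6961, 6637 and 6331 CPM in the CTRL sham libraries and at 5203, 5317, 5903 and 5802 CPM after MCAo. Every MCAo library was lower than every sham library. Kdr, the gene of the main signalling receptor VEGFR2, was at 1297, 1333, 1231 and 1337 CPM after sham and at 1068, 1110, 1057 and 1167 CPM after MCAo, again with no overlap. Flt4, the gene of VEGFR3, went the other way, with 316, 339, 333 and 380 CPM after sham and 399, 410, 388 and 459 CPM after MCAo. The groups did not overlap for this gene either, although the highest sham and lowest MCAo libraries lay close. In bulk RNA, fewer cells of a type and less RNA per cell cannot be told apart. The background for such counts was high, since 7.34% of all genes tested had groups that did not overlap on this scale.

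In YT-iKO mice the receptor groups overlapped more. Flt1 was at 6751, 6199, 5607 and 6016 CPM in the YT-iKO sham libraries and at 4603, 5158, 6291 and 4831 CPM after MCAo. Kdr was at 1521, 1209, 1045 and 1453 CPM after sham and at 1085, 1133, 1124 and 1044 CPM after MCAo. Flt4 was at 348, 291, 311 and 290 CPM after sham and at 378, 331, 380 and 408 CPM after MCAo. The third sham library, with a low Kdr, and the second MCAo library, with a low Flt4, had the highest background of their groups (0.571 and 0.578 CPM per kilobase). Flt4 also marks lymphatic endothelium. The sum of the 4 lymphatic markers found of 5 listed was 11.6 to 13.0 CPM after sham and 6.54 to 30.3 CPM after MCAo in CTRL, and 9.56 to 40.7 and 1.01 to 43.6 CPM in YT-iKO. Its values of 40.7 and 43.6 CPM were in the 2 libraries of highest background just named. That of 1.01 CPM was in YT-iKO MCAo replicate 4, of lowest background (0.0308 CPM per kilobase). The part of this sum in the Flt4 level was not tested.

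On the all-gene scale no receptor passed the threshold of adjusted p under 0.1 in edgeR's quasi-likelihood test, and 0 of the 6 members did in any comparison. In CTRL, 0.216% of all genes were called for MCAo against sham, and in YT-iKO 0.318%. Over both genotypes 1.23% of genes were called. On that scale the log2 fold change was -0.37 ± 0.29 in CTRL and -0.21 ± 0.29 in YT-iKO for Flt1, -0.32 ± 0.27 and -0.22 ± 0.27 for Kdr, and 0.20 ± 0.26 and 0.35 ± 0.26 for Flt4. With abundant-gene scaling these were -0.28 ± 0.12 and -0.23 ± 0.12 for Flt1, -0.24 ± 0.10 and -0.25 ± 0.10 for Kdr, and 0.27 ± 0.09 and 0.27 ± 0.09 for Flt4. The all-gene log2 fold changes over both genotypes were -0.29 ± 0.21 for Flt1, -0.27 ± 0.19 for Kdr and 0.27 ± 0.18 for Flt4 (± SE), each with an edgeR adjusted p of 1.00. On the abundant-gene scale the estimates were nearly the same and their errors smaller: -0.26 ± 0.09 for Flt1, -0.25 ± 0.07 for Kdr and 0.27 ± 0.06 for Flt4. There the edgeR adjusted p was 0.15 for Flt1, 0.081 for Kdr and 0.017 for Flt4, and 5.14% of all genes were called. Within one genotype no member passed on that scale, where 1.78% of genes were called in CTRL and 1.72% in YT-iKO. Flt4 was called in 16 of 16 fits that each left out 1 library (log2 fold change 0.25 to 0.30). Kdr was lower after MCAo in 16 of 16 (-0.30 to -0.21) and called in 3, those without YT-iKO sham 2 or 3 or YT-iKO MCAo 2 (edgeR adjusted p over the 16 fits 0.00858 to 0.186). With limma-voom and sample quality weights Flt4 was at -0.03 ± 0.11, which is within its error of 0, and the cause of that difference was not tested. That fit called 54.7% of all genes, 24.2% in CTRL alone and 18.1% in YT-iKO alone. With the background as a covariate in edgeR it was 0.21 ± 0.08 (adjusted p = 0.173).

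Exact permutation tests were made for each receptor alone. Between CTRL MCAo and CTRL sham the two-sided exact p on the abundant-gene scale was 0.0286 for each receptor, the smallest that 70 assignments can give, and on the all-gene scale it was 0.0571 for Flt1, 0.0571 for Kdr and 0.40 for Flt4. Over both genotypes, with 4900 assignments within genotype, the exact p on the abundant-gene scale was 0.00245 for Flt1, 0.00286 for Kdr and 0.00163 for Flt4. On the all-gene scale these were 0.0522, 0.13 and 0.20. In all, 36 such tests were made on each scale, and these p-values were not adjusted.

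A ratio of 2 genes within 1 library does not depend on the scaling between libraries. The ratio of Flt4 to Kdr counts was 0.244, 0.255, 0.270 and 0.285 in CTRL sham and 0.373, 0.369, 0.367 and 0.393 in CTRL MCAo. All 4 stroke libraries were above all 4 sham libraries. In YT-iKO the ratio was 0.229, 0.241, 0.297 and 0.200 after sham and 0.349, 0.292, 0.338 and 0.391 after MCAo. Here the groups overlapped by 1 pair of libraries, YT-iKO sham replicate 3 and YT-iKO MCAo replicate 2. Of the 8 MCAo libraries of both genotypes, 7 were above the highest of the 8 sham libraries. The geometric mean was 1.43-fold higher after MCAo in CTRL (log2 difference 0.51, two-sided exact permutation p = 0.0286, adjusted p = 0.152 over 16 tests of ratios). In YT-iKO it was 1.42-fold higher (log2 difference 0.51, exact permutation p = 0.0571, adjusted p = 0.229). The smallest adjusted p reached by any of the 16 ratio tests was 0.152, so none passed 0.1. How often ratios of other gene pairs stay apart between groups was not counted, so the separation in CTRL has no background share beside it.

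The ratio of Flt1 to Kdr stayed nearly level. Its geometric mean was 5.18 in CTRL after sham and 5.05 after MCAo, and 4.74 and 4.73 in YT-iKO. The groups overlapped in every comparison, with log2 differences from -0.13 to -0.00 and exact permutation p-values from 0.20 to 0.971 (n = 4 against 4).

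**Figure D3:**
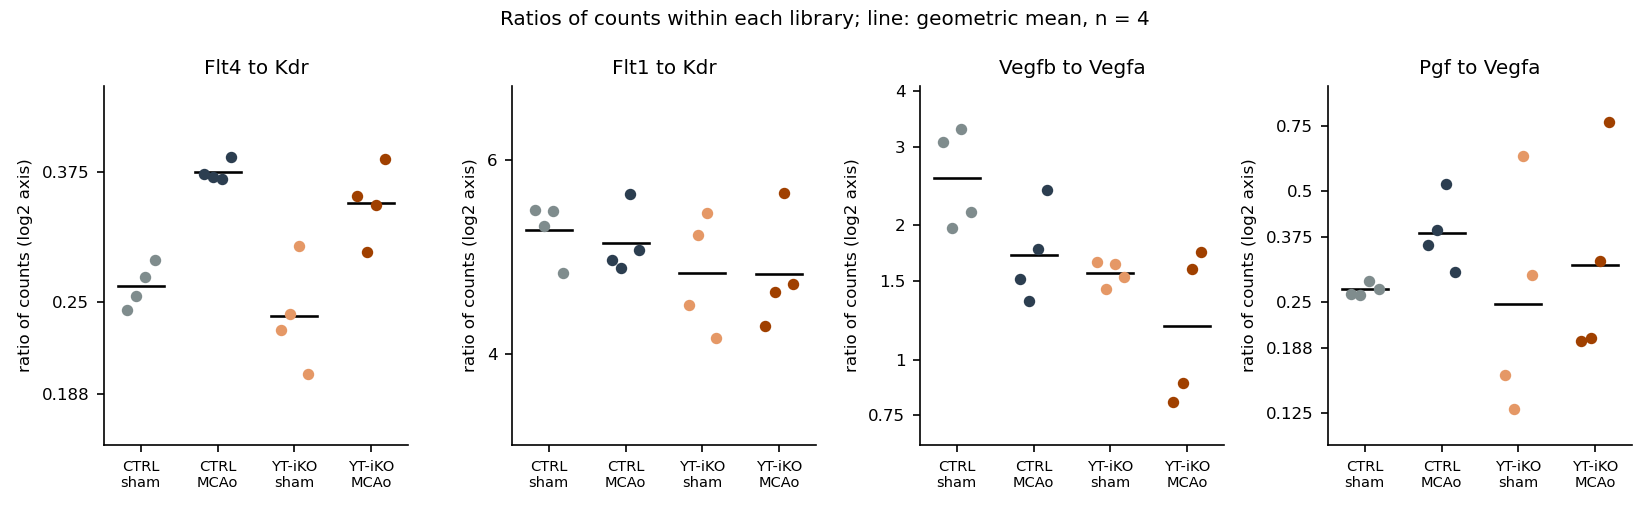
Ratio of the counts of a pair of members within each library (vertical axis, log2 spacing) by group; points are libraries and lines geometric means. Flt4 to Kdr is higher after MCAo in both genotypes, at 0.375 against 0.263 in CTRL and 0.341 against 0.239 in YT-iKO, while Flt1 to Kdr stays between 4.14 and 5.60 in every library.

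Vegfa, the ligand of both VEGFR1 and VEGFR2, was low in these cells and higher after MCAo. It was at 3.64, 5.70, 3.48 and 6.38 CPM in CTRL sham and at 8.42, 10.4, 7.70 and 6.06 CPM in CTRL MCAo. The lowest MCAo library lay within the sham range. In YT-iKO it was at 6.30, 7.35, 8.26 and 8.18 CPM after sham and at 14.2, 17.3, 8.14 and 7.23 CPM after MCAo. MCAo replicates 1 and 2 stood well above the sham libraries, and the other two lay within their range. Groups that did not overlap were found for 3.18% of all genes in YT-iKO on this scale and for 1.28% on the all-gene scale. Raw counts were 49 to 322 per library.

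The log2 fold change of Vegfa was 0.66 ± 0.28 in CTRL and 0.66 ± 0.27 in YT-iKO on the all-gene scale, with unadjusted edgeR p-values of 0.0263 and 0.025 and adjusted p of 1.00. With 1 library left out the value ran from 0.55 to 0.83 in CTRL and from 0.36 to 0.84 in YT-iKO, where it was lowest without YT-iKO MCAo replicate 1. Over both genotypes it was 0.66 ± 0.20, an edgeR adjusted p of 0.167. On the abundant-gene scale the value was 0.70 ± 0.20 and passed, at an adjusted p of 0.0647. DESeq2 also called it, at 0.66 ± 0.20 and an adjusted p of 0.0706, as did the edgeR fit with the background as a covariate (0.65 ± 0.16, adjusted p = 0.0128), fits that called 2.17% and 6.9% of all genes. With the filter of CPM above 1 its edgeR adjusted p was 0.0808, beside 2.51% of genes called. With each library left out in turn on the abundant-gene scale, 8 of 16 fits called Vegfa (log2 fold change 0.58 to 0.80, edgeR adjusted p 0.0217 to 0.165). The call was lost when CTRL sham 1 or 3, CTRL MCAo 1 or 2, YT-iKO sham 1 or 2, or YT-iKO MCAo 1 or 2 was left out. The exact permutation p over both genotypes was 0.00939 on the all-gene scale and 0.00857 on the abundant-gene scale.

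Pgf, the gene of placental growth factor, was the lowest member and, for MCAo over both genotypes, had the largest fold change of the 6 on both scales. It was at 0.954, 1.49, 0.996 and 1.74 CPM in CTRL sham and at 3.00, 4.09, 4.02 and 1.83 CPM in CTRL MCAo, with no overlap. These levels rest on 14 to 28 counts per library after sham and 32 to 56 after MCAo. In YT-iKO it was at 1.00, 0.938, 5.13 and 2.43 CPM after sham and at 2.78, 3.46, 2.63 and 5.58 CPM after MCAo, and the groups overlapped. The highest sham value was in YT-iKO sham replicate 3 and rests on 59 counts.

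On the all-gene scale the log2 fold change of Pgf was 1.18 ± 0.47 in CTRL and 0.91 ± 0.46 in YT-iKO, with unadjusted edgeR p-values of 0.0197 and 0.0577. With abundant-gene scaling it was 1.31 ± 0.51 in CTRL and 0.97 ± 0.36 over both genotypes (edgeR adjusted p = 0.428 and 0.21). The YT-iKO value on that scale was 0.63 ± 0.50 (edgeR adjusted p of 1.00). With all-gene scaling it was 0.36 with the fourth YT-iKO MCAo library left out and 1.34 with the third YT-iKO sham library left out, the ends of its range over 16 fits. Over both genotypes it was 1.05 ± 0.33 with an edgeR adjusted p of 0.22, and without YT-iKO sham replicate 3 it was 1.26 with an adjusted p of 0.0492. DESeq2 called it over both genotypes (1.04 ± 0.33, adjusted p = 0.0724), as did the fit with the background as a covariate (0.96 ± 0.27, adjusted p = 0.0285). With CTRL libraries alone in the fit, which called 2.52% of genes, Pgf was called as well (1.2 ± 0.35, edgeR adjusted p = 0.0937). With the expected background taken off, the mean level was 0.761 ± 0.375 CPM in CTRL sham and 2.49 ± 0.80 CPM in CTRL MCAo (SD, n = 4), and the groups remained apart. The exact permutation p in CTRL was 0.0286 on both scales and with the background taken off, and on the all-gene scale 4.14% of all genes had groups that did not overlap.

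Vegfb, whose product binds VEGFR1 alone among the VEGF receptors, varied least among the ligands. It was at 11.2, 11.2, 11.4 and 13.7 CPM in CTRL after sham and at 12.8, 14.1, 13.6 and 14.6 CPM after MCAo. In YT-iKO it was at 10.4, 10.6, 13.6 and 12.5 CPM after sham and at 11.4, 15.4, 13.0 and 12.6 CPM after MCAo. Each pair of groups overlapped. The log2 fold change for MCAo over both genotypes was 0.17 ± 0.14 on the all-gene scale and 0.18 ± 0.09 on the abundant-gene scale, with edgeR adjusted p-values of 1.00 and 0.521. With limma-voom it was -0.05 ± 0.11.

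**Figure D4:**
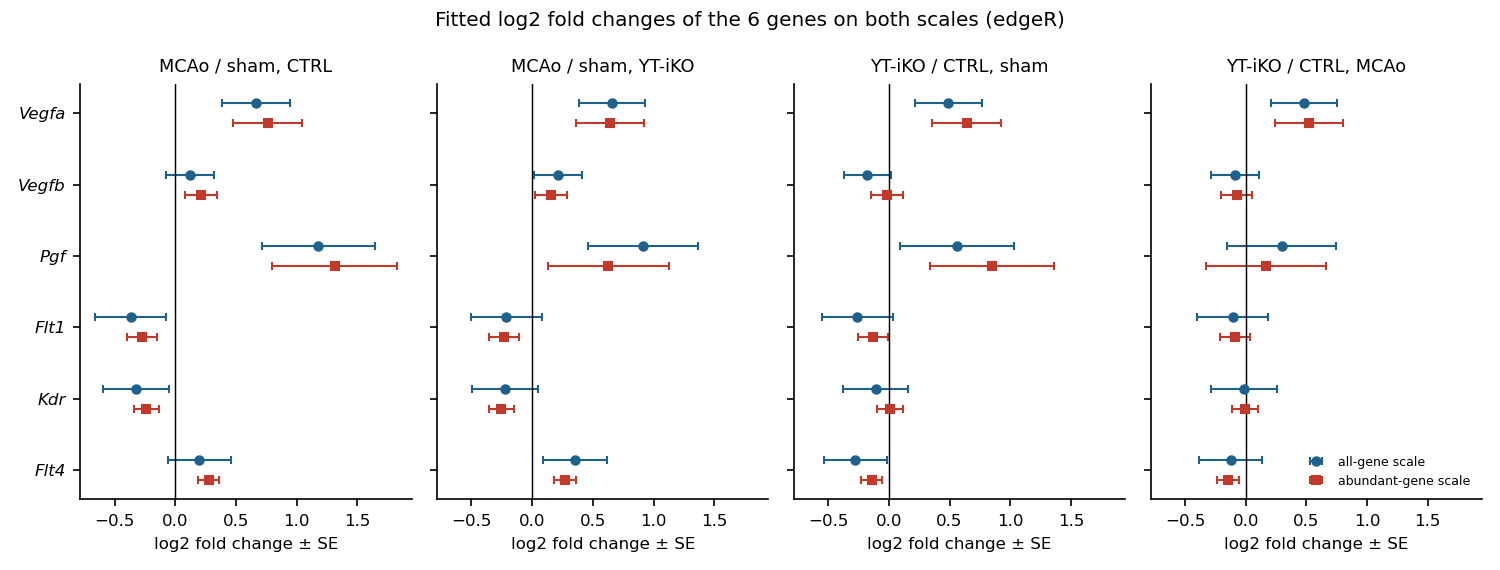
Fitted log2 fold change ± SE (horizontal axis) of each member in the 4 comparisons of single groups, on the all-gene scale (circles) and the abundant-gene scale (squares). The errors of the receptors shrink on the abundant-gene scale, from 0.26 to 0.09 for Flt4 in CTRL, and Pgf has the widest errors on either scale.

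What the loss of YAP and TAZ did to the family was asked after sham surgery and after MCAo. No member was called in either comparison, in which 0.0965% and 0.0708% of all genes passed, nor over both operations, in which 0.28% did. On the abundant-gene scale none was called either, beside 0.37%, 0.582% and 1.78% of all genes. Vegfa had the smallest unadjusted p over both operations. It was higher in YT-iKO by a log2 fold change of 0.49 ± 0.28 after sham and 0.48 ± 0.27 after MCAo, with edgeR adjusted p-values of 0.99 and 1.00. With 1 library left out it ran from 0.38 to 0.65 after sham and from 0.19 to 0.67 after MCAo, lowest there without YT-iKO MCAo replicate 1. Over both operations the value was 0.49 ± 0.19 with an unadjusted edgeR p of 0.0207, an adjusted p of 1.00 and an exact permutation p of 0.029. With abundant-gene scaling it was 0.58 ± 0.20 with an edgeR adjusted p of 0.273. After sham, 3 of 4 YT-iKO libraries were above the highest CTRL library, and the exact permutation p was 0.0571 on both scales. With the expected background taken off, the lowest YT-iKO library (5.64 CPM) lay just above the highest CTRL library (5.63 CPM), and the exact permutation p was 0.0286. Groups that did not overlap after sham were found for 4.49% of all genes with abundant-gene scaling. Pgf was at 0.56 ± 0.47 after sham and 0.30 ± 0.45 after MCAo, each with an interval that spans 0. Without YT-iKO sham replicate 3 the value after sham was 0.09, and without YT-iKO MCAo replicate 4 that after MCAo was -0.27.

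For the ratio of Vegfb to Vegfa the sham groups of the genotypes did not overlap, and how often ratios of other gene pairs do so was not counted. It was 3.08, 1.97, 3.29 and 2.15 in CTRL sham and 1.66, 1.44, 1.64 and 1.53 in YT-iKO sham, so each YT-iKO library was lower than each CTRL library. The log2 difference was -0.71 (exact permutation p = 0.0286, adjusted p = 0.152 over 16 tests). After MCAo the ratio was 1.52, 1.35, 1.77 and 2.41 in CTRL and 0.804, 0.888, 1.60 and 1.74 in YT-iKO, and the groups overlapped. Vegfb itself was apart between the sham groups on the all-gene scale, lower in YT-iKO (exact permutation p = 0.0286, beside 3.85% of all genes), and on the abundant-gene scale, with 4.49%, it was not (p = 0.971 by the same exact test).

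No receptor differed between genotypes past the threshold. On the all-gene scale the log2 fold change over both operations was -0.18 ± 0.21 for Flt1, -0.06 ± 0.19 for Kdr and -0.20 ± 0.18 for Flt4, each with an edgeR adjusted p of 1.00, and the 95% interval for Kdr was -0.44 to 0.31. Over both operations on the abundant-gene scale the log2 fold change was -0.11 ± 0.09 for Flt1, 0.00 ± 0.07 for Kdr and -0.14 ± 0.06 for Flt4, with edgeR adjusted p-values of 0.826, 0.994 and 0.514. There the 95% interval for Kdr (normal approximation from the SE) was -0.14 to 0.15. The exact permutation p for Flt4 was 0.0249 on that scale and 0.204 on the all-gene scale.

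The responses to MCAo were compared between the genotypes by an interaction term. No member passed and no gene did, 0.00% of those tested. Only 116 of 31085 genes had an unadjusted p under 0.05, a smaller share than the 0.05 that evenly spread p-values would give. The test was thus cautious here, and the lack of calls does not show that the responses were alike. DESeq2 likewise called no gene, and edgeR with the background as a covariate called 1 gene, which was no member. On the abundant-gene scale the difference of the 2 responses had a 95% interval of -0.25 to 0.24 for Flt4, -0.30 to 0.27 for Kdr, -0.30 to 0.38 for Flt1, -0.42 to 0.30 for Vegfb, -0.90 to 0.66 for Vegfa and -2.07 to 0.71 for Pgf. With all-gene scaling the receptor intervals were wider, at -0.57 to 0.88 for Flt4, -0.66 to 0.85 for Kdr and -0.65 to 0.96 for Flt1. Those of Vegfa and Pgf were wide on both scales.

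Correlations among the members over the 16 libraries on the abundant-gene scale are a description, since the libraries share groups and background. Pearson's r of log2(CPM + 1) was 0.71 between Flt1 and Kdr, -0.75 between Flt1 and Pgf, -0.76 between Flt1 and Vegfa and -0.73 between Kdr and Pgf. With group means taken off these were 0.43, -0.50, -0.45 and -0.54. Between Vegfa and Kdr it was -0.42, and 0.01 with group means taken off. Among the ligands it was 0.65 between Vegfb and Pgf (0.53 with group means taken off) and 0.60 between Vegfa and Pgf (0.25). For Flt4 with each other member it was -0.43 to 0.45, and -0.34 to 0.23 with group means taken off. Of 8813 genes averaging 10 CPM or more, those most like Flt4 on this scale were Man2a1 (r = 0.94), Slc35e1 (0.93) and Zmiz2 (0.92). For Kdr they were Unc5b, a netrin receptor of endothelium (0.90), Arhgef12 (0.89) and Tgfb2 (0.89), and for Flt1 they were Mfhas1 (0.94), Slc19a3 (0.93) and Rin2 (0.91). The nearest were Vcan for Vegfa (0.86), Col5a3 for Pgf (0.91) and Gramd1b for Vegfb (0.86). On the all-gene scale Man2a1, Mfhas1, Vcan and Col5a3 were again first for their members.

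The other ligands, their processing factors and the co-receptors were 6 genes, of which 0 of 6 were called on the all-gene scale in any comparison. On the abundant-gene scale 3 of 6 were called for MCAo over both genotypes, beside 5.14% of all genes: Nrp2 higher, and Nrp1 and Vegfc lower. Nrp1, the co-receptor that joins VEGFR2, was at 341 to 374 CPM in CTRL sham and 280 to 325 CPM in CTRL MCAo, and at 331 to 419 and 257 to 319 CPM in YT-iKO. Nrp2, the co-receptor that joins VEGFR3, was at 194 to 220 CPM in CTRL sham and 226 to 289 CPM in CTRL MCAo, and at 153 to 203 and 232 to 349 CPM in YT-iKO. Neither gene's sham and MCAo groups overlapped in either genotype, as for 7.34% of all genes in CTRL and 3.18% in YT-iKO on this scale. The log2 fold changes over both genotypes were -0.29 ± 0.06 for Nrp1 (edgeR adjusted p = 0.0106) and 0.54 ± 0.09 for Nrp2 (edgeR adjusted p = 9.28e-04). On the all-gene scale they were -0.31 ± 0.17 and 0.55 ± 0.19, with adjusted p-values of 1.00 and 0.366. Vegfc, a ligand of VEGFR3 and named after its values were seen, was at 20.8 ± 1.97 CPM in CTRL sham and 13.1 ± 2.83 CPM in CTRL MCAo, and at 15.3 ± 5.83 and 10.6 ± 4.02 CPM in YT-iKO (SD, n = 4). Its log2 fold change over both genotypes on the abundant-gene scale was -0.60 ± 0.18 (edgeR adjusted p = 0.0906).

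Of 8 receptor partners and trafficking genes none was called on the all-gene scale. After MCAo over both genotypes 3 were higher on the abundant-gene scale (5.14% of all genes called), Pecam1, Dab2 and Ptpn1, named after their values were seen. The most abundant were Ptprb, the gene of the phosphatase VE-PTP that acts on VEGFR2 and TIE2, and Cdh5, the gene of VE-cadherin. Ptprb was at 4482 to 4609 CPM in CTRL sham and 2903 to 3452 CPM in YT-iKO sham, and at 5149 to 5655 and 2848 to 3397 CPM after MCAo. The genotypes did not overlap after either operation, as for 4.49% of all genes after sham and 3.21% after MCAo on this scale (0.981% after MCAo on the all-gene scale). Over both operations the log2 fold change was -0.73 ± 0.20 on the all-gene scale (edgeR adjusted p = 0.329) and -0.65 ± 0.07 on the abundant-gene scale (edgeR adjusted p = 6.1e-05, beside 1.78% of all genes). Cdh5 was at 1165 ± 67.3 CPM in CTRL sham and 1086 ± 148 CPM in YT-iKO sham, and was called in none of the 7 comparisons on the all-gene scale.

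Of 33 signalling genes below VEGFR2, 1 rose after MCAo over both genotypes and none fell on the all-gene scale, where 1.23% of all genes were called, and the list median of 0.08 lay near the 0.03 of all genes. With abundant-gene scaling, where 5.14% were called, 4 were higher and 2 lower. The gene called on both scales was Vav2, an exchange factor for Rac, with a log2 fold change of 0.72 ± 0.15 (edgeR adjusted p = 0.0193). It was at 16.5 to 17.9 CPM in CTRL sham and 28.5 to 33.6 CPM in CTRL MCAo. In YT-iKO it was at 12.9 to 26.7 CPM after sham and 23.9 to 29.6 CPM after MCAo, and these groups overlapped through YT-iKO sham replicate 3, the highest of its group. The most abundant genes of the list, Plcg1 (phospholipase C gamma 1) and Nos3 (endothelial nitric oxide synthase), were at -0.18 ± 0.20 and 0.08 ± 0.20, with edgeR adjusted p-values of 1.00.

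Of 15 VEGF-inducible genes, 1 rose and 1 fell after MCAo over both genotypes on the all-gene scale (1.23% of all genes called), with a list median of 0.28 beside 0.03 for all genes. Scaled by abundant genes (5.14%), 2 were higher and 2 lower, with Esm1 and Hlx, named after their values were seen, beside Ptgs2 and Egr3. Ptgs2, the gene of cyclooxygenase-2, was at 30.5 ± 2.98 CPM after sham and 92.7 ± 25.9 CPM after MCAo in CTRL, and at 33.1 ± 4.70 and 109 ± 27.9 CPM in YT-iKO (SD, n = 4). It rose in CTRL (log2 fold change 1.59 ± 0.33, edgeR adjusted p = 0.0581) and in YT-iKO (1.84 ± 0.33, edgeR adjusted p = 0.0164), and the CTRL call was lost in 7 of 16 fits without 1 library. Egr3, an early growth response factor, fell over both genotypes (-1.08 ± 0.26, edgeR adjusted p = 0.047), a call lost in 3 of 16 fits, those leaving out the first or the second CTRL sham library or the fourth CTRL MCAo library. Over both operations 1 gene of the list was called between genotypes on the all-gene scale (0.28% of all genes), and 3 on the abundant-gene scale (1.78%), of which Angpt2 and Rcan1 were lower and Egr3 higher in YT-iKO. Angpt2, the TIE2 ligand that destabilizes vessels, was at 26.2 to 40.2 CPM in CTRL sham and 11.9 to 18.3 CPM in YT-iKO sham, and at 30.0 to 40.5 and 18.7 to 23 CPM after MCAo. It fell by 1.38 ± 0.23 after sham and by 1.03 ± 0.16 over both operations on the log2 scale with all-gene scaling (edgeR adjusted p = 0.015 and 0.00266), and the call after sham was lost without YT-iKO sham replicate 4. The authors name Angpt2 among the YAP/TAZ targets whose fall after sham they took as a sign of recombination. The most abundant genes of this list, Adamts1 and Dll4, the Notch ligand of tip cells, were not called on the all-gene scale.

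Of 9 genes of the hypoxia-inducible factors and their oxygen sensors, 1 rose after MCAo over both genotypes on the all-gene scale (1.23% of all genes called). By abundant-gene scaling (5.14%) 2 were higher, Hif1a and Hif3a, the latter at 0.91 ± 0.27 (edgeR adjusted p = 0.0861). Hif1a, the oxygen-regulated subunit, was at 121 to 142 CPM in CTRL sham and 216 to 270 CPM in CTRL MCAo, and at 122 to 141 and 175 to 237 CPM in YT-iKO. The log2 fold change of Hif1a on the all-gene scale was 0.79 ± 0.19 (edgeR adjusted p = 0.0513), and the call was lost in 3 of 16 fits, those leaving out the second CTRL sham, the fourth CTRL MCAo or the fourth YT-iKO sham library. Epas1, the far more abundant endothelial subunit HIF-2 alpha, was at 0.04 ± 0.21. Of 14 hypoxia-inducible genes 2 rose and none fell on the all-gene scale (1.23% of all genes called), and the list median was 0.07. With abundant-gene scaling (5.14%) 3 were higher, with Pgk1, a glycolytic enzyme, beside Adm and Pfkfb3, and Ndrg1 was lower. Adm, the gene of adrenomedullin, rose by 1.07 ± 0.22 (edgeR adjusted p = 0.0118) and Pfkfb3, a glycolytic activator, by 0.90 ± 0.21 (edgeR adjusted p = 0.0318). The Pfkfb3 call was lost without YT-iKO sham replicate 4. Slc2a1 and Ndrg1, the most abundant of the list, were at 0.28 ± 0.23 and -0.28 ± 0.18 on the all-gene scale and were not called there. With abundant-gene scaling Ndrg1 was called, at -0.27 ± 0.08 (edgeR adjusted p = 0.0906).

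**Figure D5:**
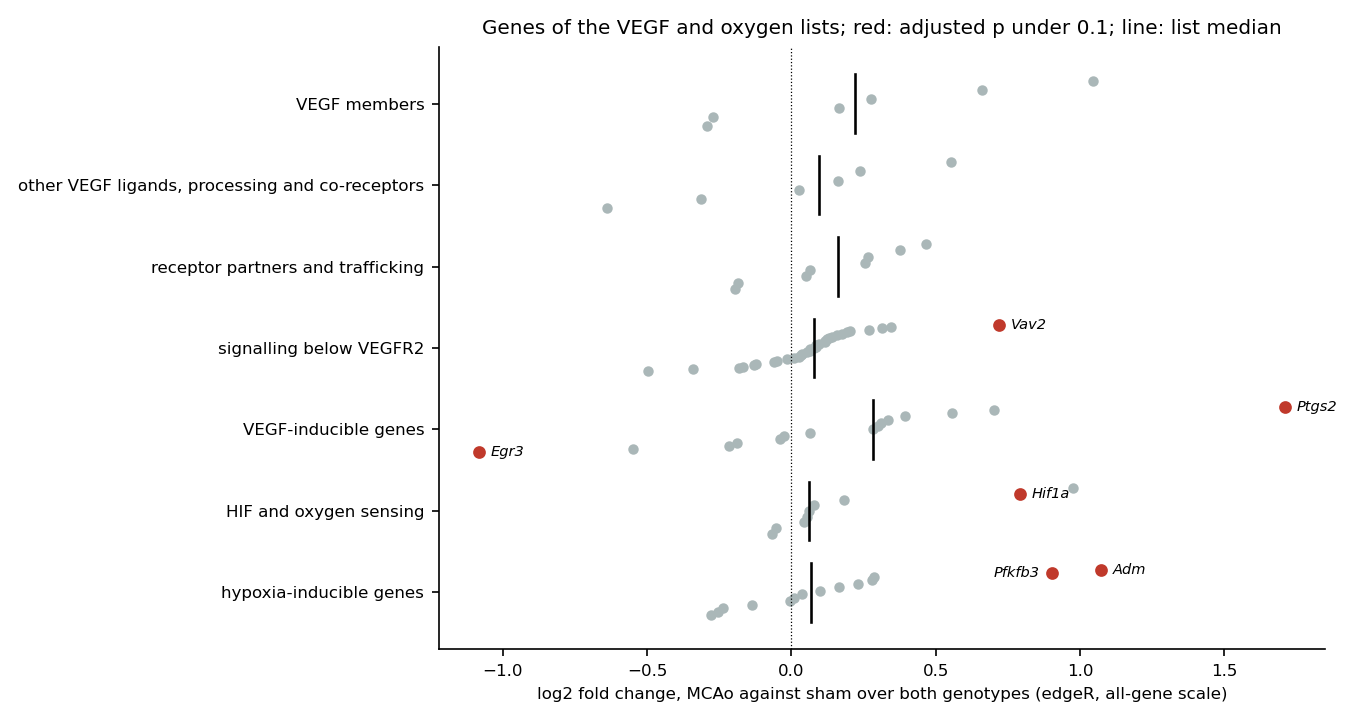
Log2 fold change for MCAo against sham over both genotypes on the all-gene scale (horizontal axis) of each gene of the VEGF members and of the 6 lists around them; red points passed an edgeR adjusted p under 0.1, grey points did not, and the vertical line is the median of the list. Red points are Vav2, Ptgs2, Egr3, Hif1a, Adm and Pfkfb3, and none is a member.

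Sums of markers of other cells differed between some of these groups, and low sums were also high where the even background was high. The sum of 6 markers of tip cells and fenestrated endothelium was 81.8 to 377 CPM after sham and 212 to 231 CPM after MCAo in CTRL. In YT-iKO it was 59.4 to 105 and 116 to 221 CPM, without overlap, as for 3.18% of single genes on this scale. This list includes Pgf and Angpt2 themselves, and the value of 377 CPM was in CTRL sham replicate 4. The sum of 7 pericyte markers was 681 to 875 CPM after sham and 681 to 1195 CPM after MCAo in CTRL, and 558 to 773 and 644 to 996 CPM in YT-iKO. The sum of 7 astrocyte markers was 92.5 to 107, 84.8 to 131, 59.0 to 113 and 73.4 to 108 CPM in the same order, and that of 5 choroid plexus markers was 16.6 to 31.7, 16.7 to 111, 16.9 to 56.6 and 15 to 102 CPM. The sum of 5 fibroblast markers was 15.4 to 18.2 CPM after sham and 23.7 to 36.7 CPM after MCAo in CTRL, which did not overlap, and 15.3 to 46.7 and 19.1 to 45.9 CPM in YT-iKO. Its values of 46.7 and 45.9 CPM were in YT-iKO sham replicate 3 and MCAo replicate 2, the libraries of highest background. The sum of 6 neuron markers was 48.7 and 43.2 CPM there, and 2.42 CPM in YT-iKO MCAo replicate 4, of lowest background. The part of the background in these sums was not tested. The sum of the 10 endothelial markers was 7545 to 8156 CPM in CTRL sham and 10608 to 13817 CPM in CTRL MCAo, of which Vwf, the gene of von Willebrand factor, went from a mean of 1128 to 4579 CPM. The part of these shifts in the levels of Vegfa and Pgf was not tested.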

How the data were processed

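RNA of sorted bECs was sequenced as paired-end SMART-Seq libraries, 4 per group. The authors aligned reads with STAR 2.7.8a to GRCm38 and deposited raw counts per gene, not normalized. The counting program and strand setting are not given in the sources used here. The members and gene lists were chosen with earlier results of these data known. Groups were taken from the labels, and every column of the table belonged to 1 of the 16 libraries.

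Genes were filtered in edgeR 4.0.16 (R 4.3.3; a minimum count of 10 and a total of 15), scaled by TMM, and tested with the quasi-likelihood test in a model of all 4 groups, with Benjamini-Hochberg adjustment over 31085 genes and a threshold of 0.1. The test was also run on simulated data, whose outcome is not given here. Single genes and ratios were tested with the two-sided exact permutation test, genes on log2(CPM + 1). Alternatives were DESeq2 1.42.0, limma 3.58.1, other factors, filters and pseudocounts, the groups compared alone, a replicate block, and each library left out. After the data were seen, TMM factors computed over genes averaging 10 CPM or more, an even background as a covariate or taken off, and a fit without YT-iKO MCAo replicates 1 and 2 were added. Symbols named were the 6 members, each list gene called on the all-gene scale, the most abundant pair of each list, and genes most like each member. Others were named after their values were seen: Vegfc, Pecam1, Dab2, Ptpn1, Esm1, Hlx, Rcan1, Hif3a and Pgk1.

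Total counts ran from 11418262 to 23074547 per library, which limits Pgf, at 14 to 122 counts, most. Intervals are the fitted difference ± 1.96 SE and rest on the spread between libraries, which are pools. This normal approximation is narrow for so few libraries. For Vegfb after MCAo over both genotypes on the abundant-gene scale it gave 0.001 to 0.36, beside an unadjusted edgeR p of 0.0651.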

Additional observations from a re-analysis of the deposited data

Results flagged for a closer look

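Vegfb in CTRL sham had 1 library far from the others. Replicate 4 was at 13.7 CPM and the others at 11.2, 11.2 and 11.4 CPM on the abundant-gene scale, a gap of 0.897 of the range of the group. It was the only one of 40 groups of 4 libraries so marked, and chance alone is set to mark about 5% of such groups.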

How the results depend on the processing

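The count of members called for MCAo over both genotypes depended most on the setting. It was 0 in the edgeR test on the all-gene scale, beside 1.23% of all genes called, and 2 with DESeq2 (Vegfa and Pgf), beside 2.17%. It was 3 with factors from abundant genes (Flt4, Vegfa and Kdr), beside 5.14%, and 1 with the stricter CPM filter (Vegfa), beside 2.51%. With limma-voom it was 4, beside 54.7% of all genes, and with the background as a covariate 4, beside 6.9% (both Pgf, Vegfa, Flt1 and Kdr). Without 1 library it was 0 to 1: Pgf passed when the third YT-iKO sham library was left out, and Vegfa when the third or the fourth YT-iKO MCAo library was. On the abundant-gene scale the count of 3 ran from 1 to 5 without 1 library, and without YT-iKO MCAo replicates 1 and 2 it was 1, Flt4. These 2 libraries were chosen for their high Vegfa, which fixes the direction in which its values move, so that setting supports nothing about Vegfa. Leaving out the third YT-iKO sham library gave 5. It was 1 when CTRL sham 1 or 3, CTRL MCAo 1 or 2, YT-iKO sham 1 or YT-iKO MCAo 1 was left out. In CTRL it was 1 (Pgf) with only the groups compared, beside 2.52% of all genes, and 4 with limma-voom, beside 24.2%. In YT-iKO it was 1 (Kdr) with limma-voom, beside 18.1% of all genes. The cause was not tested.

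None of the log2 fold changes that turned direction passed, and the largest was that of Pgf with limma-voom. With factors from abundant genes, Kdr was at 0.0085 between genotypes after sham and 0.0016 over both operations, and the differences of the responses were -0.057 for Vegfb, -0.014 for Kdr and -0.0023 for Flt4. Without YT-iKO MCAo replicates 1 and 2, the genotype difference after MCAo was -0.023 for Vegfa, 0.033 for Flt1, 0.0326 for Kdr and 0.0043 for Flt4, and the difference of the Pgf responses was 0.035. With limma-voom, Vegfb was at -0.025 in CTRL, -0.077 in YT-iKO and -0.051 over both genotypes, Flt4 at -0.0098, -0.053 and -0.032, and Pgf at -0.49 between genotypes after MCAo and -0.16 over both operations. There the differences of the responses were -0.051 for Vegfb, -0.073 for Kdr and -0.043 for Flt4. With only the groups compared, Kdr was at 0.0077 between genotypes after MCAo. With the background as a covariate, the differences of the responses were -0.034 for Vegfb, -0.037 for Kdr and -0.0534 for Flt4.

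Without 1 library in turn, the difference of the responses ran from -0.31 to 0.18 for Vegfa, -0.090 to 0.18 for Vegfb, -0.83 to 0.15 for Pgf, -0.021 to 0.25 for Flt1, -0.12 to 0.18 for Kdr and -0.0897 to 0.29 for Flt4. The genotype difference of Kdr ran from -0.24 to 0.074 after sham, -0.17 to 0.066 after MCAo and -0.16 to 0.015 over both operations. After MCAo that of Pgf ran from -0.27 to 0.50 and that of Flt4 from -0.36 to 0.0086. The 4 ratios kept their direction in the 48 other settings, none with an adjusted p under 0.152; without 1 library they were not tested. There the log2 ratio of Flt1 to Kdr for MCAo against sham in YT-iKO ran from -0.085 to 0.056 and that of Pgf to Vegfa from -0.085 (without YT-iKO MCAo replicate 4) to 0.79. The genotype difference of Pgf to Vegfa after sham ran from -0.57 to 0.19 and was above 0 without YT-iKO sham replicate 1 or 2. In the other 13 comparisons of ratios no direction turned.

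Replicate numbers were not taken as pairs, since not every pair of the same number had a correlation of deviations above 0.1. It was above 0.1 in 17 of 24 such pairs (median 0.26), more often than in pairs of different numbers (27 of 72, median -0.13). The main model thus leaves out a likeness between libraries of the same number. A replicate block was fitted on the all-gene scale only. With the replicate block 0 of 6 members were called in each comparison, and Vegfa over both genotypes was at 0.63 with an edgeR adjusted p of 0.105. The block moved the count of all genes called from 67 to 119 in CTRL, from 99 to 132 in YT-iKO and from 383 to 448 over both genotypes. Depth limits Pgf most, at 14 to 28 counts per library in CTRL sham.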
